A study of Danio rerio with 24 samples.

Results

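The microRNA (miRNA) profile of solvent-exposed zebrafish embryos at 36 hours post-fertilization (hpf) was described from 3 Agilent arrays of the 24 arrays in the series. Members were the 217 zebrafish names (prefix dre) among 231 miRNA names on the array, each represented by its brightest probe, and they were ranked by processed fluorescence signal. All 3 arrays held total RNA of whole wild-type TL embryos that received DMSO, the solvent control, for 1 h from 30 hpf and were collected at 36 hpf. The labels name no mutant allele, transgene or other agent for this group, and the 3 arrays were biological replicates per the series' design text. How many embryos made up a replicate is not stated. No other group was used, so nothing here says that a level is particular to this stage or to this treatment. Replicate 1 was hybridised on 1 slide and replicates 2 and 3 on another.

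MiRNAs are short RNAs cut from hairpin transcripts. One strand, the guide, is loaded into an Argonaute protein and pairs with messenger RNAs mainly through its seed near the 5′ end, which lowers their translation and stability, while the other strand, marked with a star in these names, is mostly discarded. Many zebrafish miRNAs are known from in situ hybridization to be confined to single tissues, such as muscle, brain, skin, blood or cartilage. The stage sampled lies in the pharyngula period, when the heart beats, blood circulates, the trunk muscle twitches and the gut organs are still forming. In whole-embryo RNA, fewer cells of a type and less miRNA per cell cannot be told apart.

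The array reads each miRNA with a DNA probe complementary to its 3′ part, and a probe may be shortened to balance binding strength. Signals of different miRNAs therefore also depend on the probe, and the order below is an order of probe signals, not of molecule numbers. The brightest probes of the families on which the order turns are shown first, since several members differ by single bases. Each sequence is the array's own DNA probe, 5′ to 3′. Capitals mark bases that differ from the family's brightest probe when both are aligned without gaps. That probe is the first in each list, except that miR-133a and miR-133c are marked against miR-133b. The mature miRNA sequences were not used here.

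The miR-430 family, which clears maternal messenger RNA after zygotic transcription starts, was read by these 5 probes.
miR-430b: ctaccccaacttgatagc
miR-430a: ctaccccaacAAATAGC
miR-430j: taccccaaTttgatagca
miR-430c: ctaccccaaAGAgaAGC
miR-430i: ctacGccaacAAATAG

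The miR-19 group, made from the miR-17-92 cluster and its paralogs, was read by these 4 probes.
miR-19b: tcagttttgcatggatttgc
miR-19a: tcagttttgcatAgatttgca
miR-19d: tcagttttgcatggGtt
miR-19c: CGagttttgcatggat

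The miR-17 and miR-20 group of the same clusters was read by these 4 probes.
miR-20a: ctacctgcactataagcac
miR-17a: tacctgcactGtaagca
miR-20b: ctacctgcactGt
miR-93: tacctgcacAaACagc

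The muscle miRNAs miR-206 and miR-1, which share a seed, and the muscle miR-133 group were read by these probes.
miR-206: ccacacacttccttac
miR-1: ATacaTacttcTttacattcc
miR-133b: tagctggttgaaggggacc
miR-133a: Cagctggttgaagggga
miR-133c: tagctggttgaaAggga

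The let-7 family, which is known to accumulate late in animal development, was read by probes of which these 4 are shown.
let-7a: aactatacaacctactacct
let-7f: aactatacaaTctactacctc
let-7g: aactatacaaActactacctca
let-7i: aacAGCacaaActactacct

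A miRNA was called detected on an array when at least 0.5 of the spots of any of its probes were marked well above background. Of the 217 names, 121 (55.8%) were detected on all 3 arrays, 9 on 2 arrays, 2 on 1 array and 85 (39.2%) on none. Array by array, 130, 131 and 122 names were detected. Names without a star were detected on all 3 arrays in 111 of 191 cases, and starred names in 10 of 26. Spots below the dimmest well-above-background spot of their array were set to that floor, which was 151, 184 and 229 fluorescence units on replicates 1, 2 and 3. The negative control spots had a median signal of -8.47, -12.3 and -15.6 units. One negative control spot on replicate 2 reached 1393, while the highest was 97.1 on replicate 1 and 183 on replicate 3.

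Levels are given as log2 of the signal over the array's 75th percentile, with the mean and SD over 3 arrays. That percentile was 4264, 5634 and 5431 units, so that replicate 1, alone on its slide, was the dimmest array. Levels of the 121 detected miRNAs spanned at least 8.10 log2 units, or 274-fold in signal, a lower bound since the brightest had saturated spots and the dimmest lay near the floor. Their median level was -1.15, with quartiles at -2.54 and 0.54. The SD of a level over the arrays had a median of 0.11 log2 and lay between 0.0045 for miR-18b and 0.29 for let-7a. Over the 121 miRNAs, Pearson's r between arrays was 0.999 for replicates 2 and 3, which shared a slide, 0.996 for replicates 1 and 2, and 0.993 for replicates 1 and 3. Slide and replicate cannot be told apart here. On the second slide alone, 122 miRNAs were detected on both arrays, and 19 of the 20 brightest were kept, with miR-221 in place of miR-92a.

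**Figure D1:**
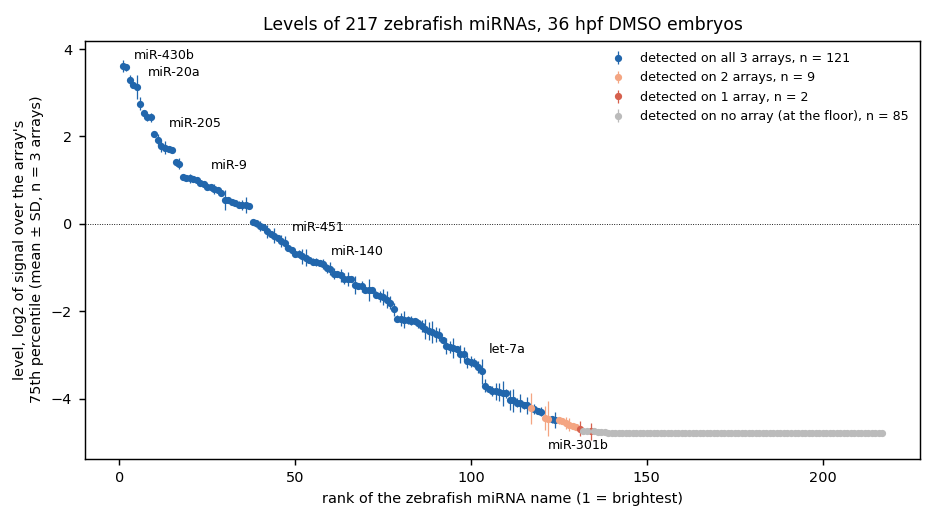
Level of each of the 217 zebrafish miRNAs (y axis, log2 of signal over the array's 75th percentile) against its rank (x axis), with points as means and bars as SD over 3 arrays. The 121 miRNAs detected on all 3 arrays fall smoothly from 3.61 to -4.49, and the 85 detected on no array lie at the floor, where ranks carry no order.

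Signal was concentrated in few names. The 5 brightest miRNAs carried 31.7% ± 0.66 (SD, n = 3) of the summed signal of the detected miRNAs, the 10 brightest 48.5% ± 0.16, the 20 brightest 65.9% ± 0.37 and the 40 brightest 84.7% ± 0.09. These shares are of fluorescence, with saturated spots at their value, and not of molecules.

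To describe the order by tissue and family, 24 lists of miRNAs were used, whose counts stand beside the 55.8% detected over all names. The 20 brightest names came mostly from a few of them: 7 belonged to the miR-17-92 cluster and its paralogs, 3 to the miR-430 family, 3 to the muscle miRNAs, 3 to the epithelial miRNAs and 2 to the miR-130 and miR-301 family. The remaining places were held by miR-10b and miR-204. None of the 72 names outside every tissue and family list was among the 20, although 17 of them were detected on all 3 arrays. The lists were chosen with earlier results of these data known, so this may follow from that choice.

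The miR-430 family held 3 of the 20 places. MiR-430b gave 58468, 64156 and 63422 units on replicates 1, 2 and 3 (level 3.61 ± 0.15), near the scanner's limit of 65502, and was first by the mean level. With the mean of all probes or the shortest probe in place of the brightest it held rank 3 or 4, behind miR-20a. In total 20 miRNA spots were saturated on replicate 2 and 18 on replicate 3, and a probe has at most 10 spots. Of the 20 brightest names only miR-430b and miR-19b had saturated spots, so most or all spots of each were saturated there. Their values on replicates 2 and 3 are lower bounds, and their SDs are affected by the scanner's limit. MiR-430a gave 40368, 49631 and 48560 units (3.18 ± 0.05, rank 4). It was unsaturated on every array and was brighter on each than the next family member. MiR-430j gave 13819, 19095 and 17602 units (1.72 ± 0.04, rank 14) and miR-430c 7468, 7795 and 7065 units (0.55 ± 0.23, rank 30). The 4 did not overlap on the scale of signals. MiR-430i was detected on no Agilent array, and its level on a second platform is given below. Its probe differs from that of miR-430a by 1 base over 16 aligned bases. In the array's own annotation (danRer5) miR-430a, miR-430b, miR-430c and miR-430i lie among repeated copies between 34354028 and 34364465 of chromosome 4. Of the 5 names on the array 4 were detected, with a median level of 1.72 beside -3.88 for all 217 names.

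The miR-17-92 cluster and its paralogs, which are associated with proliferating cells, held ranks 2, 3, 7, 9, 16, 17 and 19. MiR-19b gave 54120, 64529 and 63961 units (3.58 ± 0.08). It was below miR-430b on replicate 1 and above it on replicates 2 and 3, where most or all spots of each were saturated. MiR-20a gave 38518, 56881 and 56800 units (3.30 ± 0.11). Both were among the 5 brightest on every array. MiR-17a gave 23591, 33958 and 32126 units (2.54 ± 0.07), and miR-19a gave 21369, 31487 and 31137 units (2.44 ± 0.10). The dimmest of the cluster's guides in the 20 brightest was miR-92a, with 9293, 11402 and 11087 units (1.06 ± 0.06). MiR-18c, of a paralogous cluster, gave 10618, 15400 and 14921 units (1.41 ± 0.08), and miR-25, of another, gave 10091, 14901 and 15179 units (1.38 ± 0.12). Replicate 1 was the lowest array for each of these, in parallel with its lower 75th percentile. Of the 15 names 14 were detected, with a median level of 0.78, and miR-92b was detected on no array.

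Members of one genomic cluster differed in rank. The cluster between 45337794 and 45338621 of chromosome 8 (danRer5) encodes miR-17a, miR-18a, miR-19a, miR-20a, miR-19b and miR-92a, which held ranks 7, 28, 9, 3, 2 and 19. Between 32739356 and 32740011 of chromosome 14, miR-18c held rank 16, miR-363 rank 35, miR-20b rank 52 and miR-19c rank 107. In another cluster, between 354252 and 354500 of chromosome 14, miR-25 held rank 17, miR-19d rank 39 and miR-93 rank 74. On Exiqon arrays of the same group, a second platform, the level is log2 of signal over the array's median. There the first chromosome 14 order was reversed, from miR-19c (5.81 ± 0.08) down to miR-18c (1.36 ± 0.05). In the other cluster of chromosome 14, miR-25 (-0.15 ± 0.08) lay below miR-19d (2.34 ± 0.04) and miR-93 (0.05 ± 0.02). MiR-19b stayed the highest of the chromosome 8 cluster (5.99 ± 0.09). MiR-92b, detected on no Agilent array, lay on Exiqon at 0.41 ± 0.02, above miR-92a (0.24 ± 0.06) and miR-25. The probes of neighbours differ in length and sequence, and their part in these differences was not tested.

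All 6 miRNAs of heart and skeletal muscle were detected, with a median level of 0.30. MiR-206, a skeletal muscle miRNA, gave 30029, 52504 and 55084 units (3.13 ± 0.28, rank 5). Its SD was the largest of the 20 brightest, and the array on the first slide lay below those on the second also after scaling. MiR-133b gave 21948, 30526 and 31435 units (2.44 ± 0.08, rank 8). MiR-1, which is shared by heart and skeletal muscle, gave 12791, 19349 and 19925 units (1.75 ± 0.15, rank 13). Both followed miR-206 on each Agilent array. On Exiqon miR-1 (4.99 ± 0.09) lay above miR-206 (4.50 ± 0.11), and miR-133b (2.85 ± 0.09) lay below miR-206. MiR-133a held rank 62 (-1.15 ± 0.06), miR-499, encoded within a myosin gene in mammals, rank 68 (-1.42 ± 0.05) and miR-133c rank 89 (-2.48 ± 0.25). The probes of miR-133a and miR-133c each differ from that of miR-133b by 1 aligned base.

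Epithelial and skin miRNAs were all detected, 8 of 8, with a median level of 0.88. MiR-205, expressed in the epidermis and other epithelia, gave 17982, 23632 and 22316 units (2.06 ± 0.02, rank 10), the smallest SD among the 20 brightest. MiR-203b gave 14392, 17780 and 17221 units (1.69 ± 0.05, rank 15), and miR-203a held rank 24 (0.91 ± 0.03). In mouse skin miR-203 restrains the proliferation of keratinocytes. The miR-200 family, repressors of the Zeb transcription factors, came from a pair of clusters. Between 23553732 and 23555534 of chromosome 23, miR-200a held rank 18, miR-200b rank 25 and miR-429 rank 36. MiR-200a gave 9207, 11760 and 11055 units (1.07 ± 0.04). From 44230847 to 44231062 of chromosome 6, miR-200c held rank 79 and miR-141 rank 94. On the Exiqon arrays, where miR-200c had no value, the separation of the clusters did not hold. There miR-200b lay at 2.91 ± 0.04, miR-141 at 2.83 ± 0.08, miR-200a at 2.82 ± 0.05 and miR-429 at 1.62 ± 0.04. MiR-141 thus lay between miR-200b and miR-200a, close to both, and above miR-429.

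MiR-130c gave 25492, 38984 and 39793 units (2.75 ± 0.15) and held rank 6 on each of the 3 arrays. MiR-130b gave 14595, 21175 and 22519 units (1.91 ± 0.14, rank 11). Both are annotated between 10502868 and 10513393 of chromosome 5, beside miR-301b, which at rank 124 was the dimmest miRNA detected on all 3 arrays. MiR-130c has another annotated site, between 17265803 and 17265822 of chromosome 10 beside miR-301c, and its signal cannot be assigned to either. MiR-10b, encoded inside a Hox cluster, gave 13179, 20053 and 20107 units (1.78 ± 0.14, rank 12). All 6 Hox-embedded names were detected, down to miR-196b at rank 109, with a median level of -1.17. MiR-204, a miRNA of the lens and retina, gave 8176, 11581 and 11984 units (1.04 ± 0.10, rank 20). It was followed by miR-221, from which it differed by 0.0048 log2, so the edge of the 20 brightest has no gap.

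**Figure D2:**
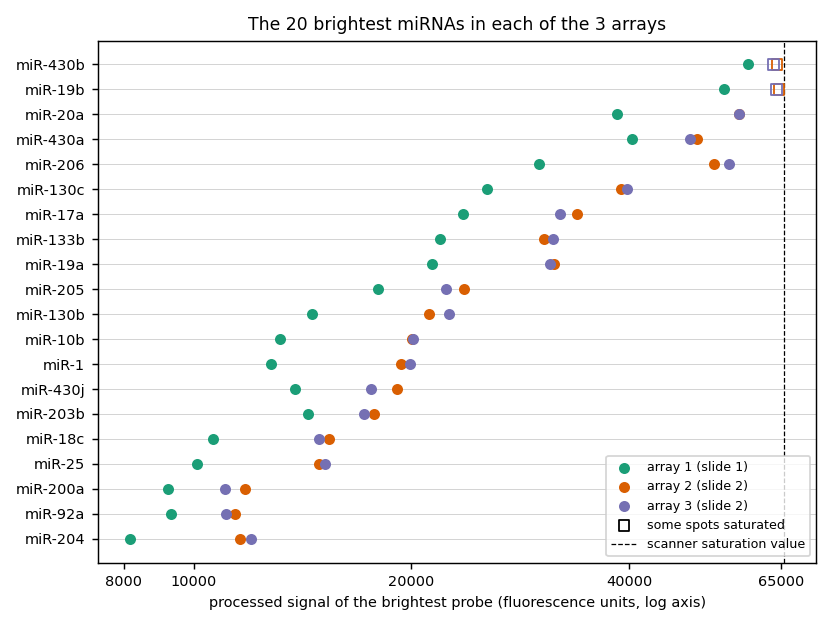
Processed signal of the brightest probe of the 20 brightest miRNAs (x axis, fluorescence units, log scale) on each array. Open squares mark probes with saturated spots, and a dashed line marks the saturation value of 65502. Replicate 1, the only array of the first slide, is the lowest point for each of the 20, and replicates 2 and 3 lie close together.

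Neighbours in the order were often not resolved. Among the 20 pairs formed by each of the 20 brightest and the next name, 9 kept the same order on all 3 arrays, and in 9 the difference exceeded 1 SD of that difference between arrays. Pairs with the same order on all 3 arrays were miR-19b over miR-20a, miR-206 over miR-130c, miR-130c over miR-17a, miR-17a over miR-133b and miR-19a over miR-205. The others were miR-130b over miR-10b, miR-10b over miR-1, miR-203b over miR-18c and miR-25 over miR-200a. Names were ordered by the mean of the same arrays, so agreement on all 3 does not by itself show that a pair is resolved. MiR-430b and miR-19b had saturated spots on the same 2 arrays and are not ordered by these data. Over all 120 neighbouring pairs of detected miRNAs, 24 kept their order on all 3 arrays. A two-sided sign-flip test over 3 arrays cannot give a p below 0.25. The order is therefore given as a description, and no other test of it was made.

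Below the 20 brightest, 101 miRNAs were detected on all 3 arrays. Of 14 neuronal names 8 were detected, or 57.1%, which is about the 55.8% over all names. MiR-9, a miRNA of neural progenitors, gave 8725, 11432 and 10496 units (1.00 ± 0.04, rank 22), and miR-153c held rank 23 (0.94 ± 0.04). MiR-124, a miRNA of differentiated neurons, gave 4340, 5653 and 5852 units (0.05 ± 0.05, rank 38). MiR-9 was above miR-124 on each Agilent array, and on Exiqon this order turned, with miR-124 at 3.87 ± 0.09 and miR-9 at 2.58 ± 0.05. MiR-219, known for its role in oligodendrocytes, held Agilent rank 95, miR-7a rank 99 and miR-138 rank 116 (-4.15 ± 0.20). They stood higher on Exiqon, with miR-219 at 2.10 ± 0.17 (percentile 82.8), miR-138 at 0.60 ± 0.07 (percentile 61.9) and miR-7a at 0.23 ± 0.04 (percentile 55.8). MiR-128, miR-129, miR-132, miR-137, miR-212 and miR-7b, of which several are known from mature neurons, were detected on no Agilent array.

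Both erythroid miRNAs were detected. MiR-451, which is matured by Argonaute 2 without Dicer, gave 3267, 4715 and 4366 units (-0.32 ± 0.06, rank 45). MiR-144, transcribed with it between 41283987 and 41284148 of chromosome 5, gave 515, 656 and 550 units (-3.15 ± 0.13, rank 100). On Exiqon the order of the pair turned, with miR-144 at 1.31 ± 0.07 and miR-451 at 0.83 ± 0.11. Of 8 leukocyte names, miR-223 (rank 98) and miR-142a-3p (rank 101) were detected on all 3 arrays, miR-146a on 2, and miR-155, miR-142a-5p, miR-142b-5p, miR-146b and miR-150 on none. Among the 5 vascular and smooth muscle names, miR-221 held rank 21 (1.04 ± 0.06) and miR-222 rank 46 (-0.39 ± 0.14). MiR-126, which is endothelial, gave 5946, 8099 and 7795 units (0.51 ± 0.02, rank 32). The smooth muscle pair was at or near the Agilent floor, with miR-143 detected on 1 array and miR-145 on none. On Exiqon the order of miR-221 (0.66 ± 0.03) and miR-222 (1.74 ± 0.06) turned, and miR-126 (2.24 ± 0.06) lay above both. There miR-143 (0.19 ± 0.02, percentile 54.4) lay above the array's median and miR-145 (-1.25 ± 0.08) below it.

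Cartilage and mesenchyme miRNAs were all detected. MiR-199 held rank 34 (0.44 ± 0.09), miR-140, a cartilage miRNA, rank 56 (-0.88 ± 0.09) and miR-214 rank 73 (-1.62 ± 0.08). On Exiqon miR-199 was again the highest (1.95 ± 0.07), but miR-214 (0.41 ± 0.06) lay above miR-140 (0.06 ± 0.03). The sensory organ cluster between 14884996 and 14886141 of chromosome 4, known from hair cells and photoreceptors, had its 3 unstarred members detected, from miR-96 at rank 60 (-1.02 ± 0.14) through miR-182 at rank 75 to miR-183 at rank 120 (-4.30 ± 0.10), while miR-182* was on no array. Of 9 liver, gut and pancreas names, 4 were detected. MiR-216b held rank 70 (-1.51 ± 0.03), miR-216a rank 88 and miR-217 rank 93, all known from the exocrine pancreas, and miR-192, known from gut and liver, held rank 108 (-3.85 ± 0.21). The hepatocyte miRNA miR-122, the islet miRNA miR-375, and miR-148, miR-194a and miR-194b were on none. On Exiqon this order did not hold, and miR-148 lay at 1.21 ± 0.04 (percentile 70.2). Below it there were miR-217 (-0.21 ± 0.02), miR-216a (-0.86 ± 0.04), miR-192 (-0.91 ± 0.06) and miR-216b (-1.30 ± 0.18, percentile 10.2).

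Other families showed a wide range among their members on the Agilent arrays. The ranks given here are Agilent ranks, and not every order within a family held on Exiqon. From 10 names of the related miR-15, miR-16, miR-103 and miR-107 families 8 were detected, from miR-457a (rank 40) to miR-16a (rank 102). The 5 let-7 partners, encoded beside let-7 copies, ran from miR-125b (rank 43) to miR-125c (rank 90), with miR-125a on no array. For the miR-30 family 4 of 5 were detected, from miR-30b (rank 48) to miR-30d (rank 86). Both miR-26 members were detected, miR-26b at rank 27 and miR-26a at rank 55, and both miR-181 guides, miR-181a at rank 49 and miR-181c at rank 80. Both orders turned on Exiqon. There miR-26a lay at 2.08 ± 0.08 and miR-26b at 1.48 ± 0.06, and miR-181c at 1.36 ± 0.05 and miR-181a at -0.07 ± 0.02. In the stress-associated list miR-21 held rank 29 (0.72 ± 0.06), the hypoxia-responsive miR-210 rank 72 and miR-34 rank 91, while miR-34b and miR-34c were on no array. Of 8 names of the miR-23/24/27 clusters, miR-23b (rank 61), miR-24 (rank 92), miR-23a (rank 97) and miR-27c (rank 104) were detected, whereas the other 4 miR-27 names were on no array. On Exiqon these 4 lay above miR-27c (-0.79 ± 0.05), from miR-27b at 0.31 ± 0.01 to miR-27a at -0.71 ± 0.01. Lens and retina miRNAs besides miR-204 were miR-184 at rank 78 and miR-187, which was not detected. The miR-101 and miR-338 list ran from miR-338 at rank 83 to miR-101a at rank 123. Neither miR-29 member was detected on all 3 arrays.

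The middle of the detected range, ranks 58 to 63, was held by miR-196a, miR-301a, miR-96, miR-23b, miR-133a and miR-140*. Their levels lay from -0.92 to -1.18, with SDs of 0.056 to 0.14. MiR-23b, at the median rank of 61, gave 1800, 2477 and 2705 units. MiR-140*, the other strand of miR-140, gave 1749, 2395 and 2684 units. Each was dimmest on replicate 1. A Hox-embedded, a sensory, a muscle and a cartilage miRNA were among these names. They were picked by rank, so their similar signals follow from that choice.

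**Figure D3:**
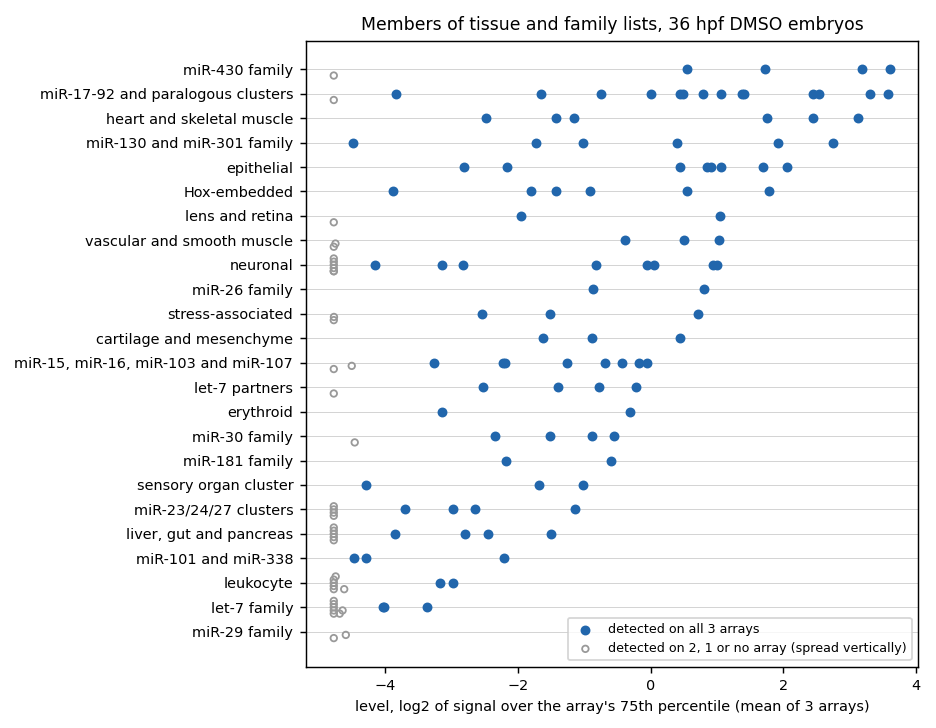
Levels (x axis, log2 of signal over the array's 75th percentile, means of 3 arrays) of the members of 24 tissue and family lists, ordered from top to bottom by their brightest member. Filled points are miRNAs detected on all 3 arrays and open points are those detected on 2, 1 or no array. The muscle, epithelial and Hox-embedded lists have no open point, while most let-7, leukocyte and liver, gut and pancreas members are open.

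The let-7 family gave low signals on the Agilent arrays. Of 10 names, let-7a (334, 550 and 636 units, -3.37 ± 0.29, rank 103), let-7f (rank 111) and let-7g (rank 112) were detected on all 3 arrays. Let-7b was detected on 2 arrays, let-7c on 1, and let-7d, let-7e, let-7h, let-7i and let-7j on none. No let-7 probe reached the 25th percentile of the detected levels. Let-7a, let-7f and let-7g were each lowest on replicate 1, also after scaling. On Exiqon let-7b (0.78 ± 0.04, percentile 65.6) and let-7e (0.43 ± 0.05, percentile 60.9) lay above the array's median. The other let-7 names lay below it, with let-7f at percentile 5.1, so the order within the family differed between platforms.

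The 5 dimmest miRNAs detected on all 3 arrays were miR-17a*, miR-101b, miR-183, miR-101a and miR-301b, with levels from -4.23 to -4.49. MiR-301b gave 217, 221 and 240 units, little above the floors of 151, 184 and 229. Near this limit detection varied between arrays. MiR-454b, miR-726, miR-30a, miR-10a*, miR-15a, miR-126*, miR-29a, miR-146a and let-7b were detected on 2 arrays, and let-7c and miR-143 on 1. MiR-454b gave 304, 271 and 243 units, and miR-30a 264, 203 and 229 units, the last being the floor. Each was highest on the first slide, unlike the brighter miRNAs. MiR-29a gave 158, 239 and 246 units, the opposite order.

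The 85 names detected on no array were not at a measurable level with this array, which does not show that they are absent. Among them, 51 were in no list. Of 20 names between miR-722 and miR-740, only miR-725 (rank 87) and miR-738 (rank 96) were detected on all 3 arrays, miR-726 was detected on 2, and 17 on none. The other undetected names outside the lists included miR-31, miR-135a, miR-135b, miR-135c, miR-152, miR-190, miR-193a, miR-193b, miR-202, miR-455, miR-462 and miR-489. Probes of the undetected names had a median GC content of 43.8% and a median length of 16 bases. For the detected these were 45% and 18 bases, and for the 20 brightest 47.2% and 18 bases. For most undetected names every probe lay at the floor, so none was the brightest and the probe's identifier decided. For detected names the brightest was mostly the longer, in 111 of 113 pairs of probes 1 base apart. The probes of detected and undetected names were therefore not chosen alike, which limits this comparison. Within the 121 detected miRNAs, Spearman's rho of the level with GC content was 0.083 and with probe length 0.023, as a description across miRNAs whose probes the array's designers had adjusted.

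Strands of one hairpin could be compared in signal for 28 pairs, with different probes for each strand. Both strands were detected on all 3 arrays in 9 pairs, and the unstarred strand was brighter on all 3 arrays in each of the 9 (a pair named 5p and 3p is counted with the 5p strand as unstarred). On Exiqon the starred strand was the higher in 2 of the 9: miR-140* lay at 0.88 ± 0.04 beside 0.06 ± 0.03 for miR-140, and miR-210* at -0.51 ± 0.02 beside -0.61 ± 0.02 for miR-210. MiR-17a gave 23591, 33958 and 32126 units and miR-17a* 248, 294 and 272. MiR-203b* gave 287, 287 and 309 units, far below miR-203b. At the other end, miR-133a* gave 1623, 2485 and 2395 units beside 1838, 2622 and 2452 for miR-133a, and miR-140* lay similarly close to miR-140. MiR-9* was itself bright, at 3091, 4906 and 4925 units (rank 44). The other pairs with both strands detected were those of miR-30e, miR-181a, miR-199 and miR-210. The unstarred strand alone was detected on all 3 arrays in 10 pairs, including miR-19b, miR-20a, miR-133b and miR-19a, whose starred strands were on no array. In 2 pairs the order was the opposite: miR-129* was detected (230, 314 and 325 units) and miR-129 was not, and miR-142a-3p was detected (511, 612 and 565 units) and miR-142a-5p was not. On Exiqon the order of the miR-129 pair turned, with miR-129 at -0.35 ± 0.01 and miR-129* at -1.13 ± 0.06. That of the other pair held, with miR-142a-3p at 0.05 ± 0.01 and miR-142a-5p at -0.68 ± 0.01. Neither strand was detected on all 3 Agilent arrays in 7 pairs.

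How far a signal depends on its probe was measured within miRNAs. For 113 detected miRNAs the array carried a pair of probes that differed by 1 base in length, one contained in the other. The longer probe was brighter on all 3 arrays in 111 and the shorter in 2, one of them miR-203b, and the median ratio of longer to shorter was 2.11. Over the 121 detected miRNAs the brightest probe exceeded the dimmest of the same miRNA by more than 2-fold in 71, by 8.64-fold at the 90th percentile and by 17.0-fold at most. For miR-430a, the probe of 17 bases shown above was 11.0-fold brighter than the one of 16 bases, whereas for miR-206 the ratio of 16 to 15 bases was 1.27 and for miR-20a, of 19 to 18 bases, 1.30. With the shortest probe in place of the brightest, an alternative added after the data were seen, miR-430a moved from rank 4 to rank 20 while miR-20a held rank 1 and miR-206 rank 2.

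**Figure D4:**
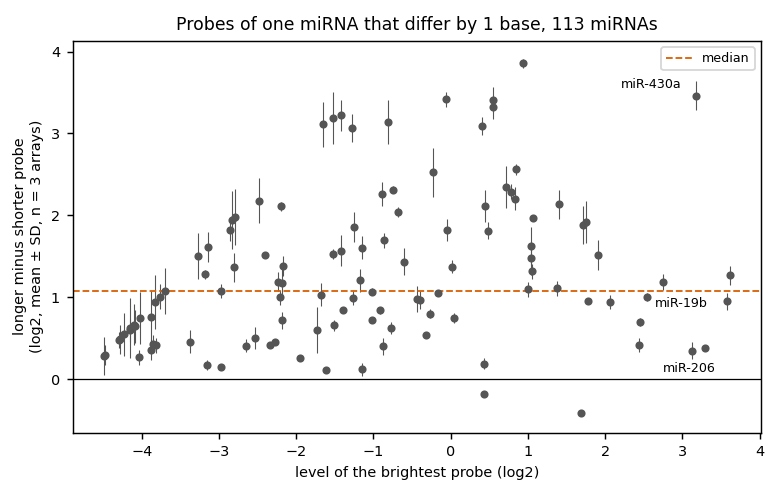
Difference in level between the longer and the shorter of a pair of probes 1 base apart (y axis, log2, mean ± SD over 3 arrays) against the level of the brightest probe (x axis, log2) for 113 miRNAs, with a dashed line at the median. All but 2 points lie above 0, and miR-430a lies far above the median of 2.11-fold while miR-206 lies below it.

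Related names may also share signal, since a probe can bind a near-identical miRNA. The brightest probes of 45 pairs of names differed by at most 1 base over their aligned part, and 1 pair, miR-17a and miR-20b, by none. Of the 20 brightest, 12 were in such a pair, as were 55 of the 121 detected and 12 of the 85 undetected. In 10 of the pairs the dimmer name was detected on no array, as for miR-430a and miR-430i. The levels of miR-19a, miR-17a, miR-20b, miR-430j and other names 1 base away from a brighter one are therefore uncertain in the part that their relatives contribute, which was not tested.

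A second platform gave another reading of the same condition. Exiqon arrays with locked nucleic acid (LNA) probes, which bind short RNAs tightly, held 3 samples of the same group in their Hy3 channel, and whether the RNA was the same is not stated. Here the level is log2 of the Hy3 signal over the array's median, and 216 of the 217 names were shared. Across the 120 shared miRNAs detected on all 3 Agilent arrays, Spearman's rho of the levels was 0.689 and Pearson's r 0.700, as a description over miRNAs that share the embryos' stage but not probes or labelling. All 20 brightest Agilent names had an Exiqon value, with a median percentile of 93.5, and 12 were among the Exiqon top 20. MiR-19b was the brightest on Exiqon (5.99 ± 0.09), with miR-1 in rank 3 (4.99 ± 0.09), miR-430a in rank 5 (4.62 ± 0.03) and miR-430b in rank 6 (4.61 ± 0.08). MiR-25, at 1.38 on Agilent, was the lowest of the 20 on Exiqon (-0.15 ± 0.08, percentile 47.4), and miR-92a lay at percentile 57.2.

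Names undetected on Agilent had a median Exiqon percentile of 23.3, beside 70.2 for those detected on all 3 arrays. Of the 85, 14 lay in the upper 50% on Exiqon and 2 in the upper 25%, namely miR-733 (3.57 ± 0.08, rank 13) and miR-735 (3.44 ± 0.07, rank 14). MiR-430i (0.79 ± 0.10, percentile 66.0) was another of the 14. Among the miRNAs detected on all 3 Agilent arrays, miR-19c also stood much higher on Exiqon, at rank 2 (5.81 ± 0.08) beside rank 107 on Agilent. Its Agilent probe has 16 bases and gave 350, 379 and 341 units. On Exiqon miR-19c lay near miR-19b (5.99 ± 0.09), from whose Agilent probe its own differs by 2 of 16 aligned bases. Signal shared with miR-19b was not tested on either platform. MiR-122 was low on both, at Exiqon percentile 23.3. MiR-124 stood higher on Exiqon (3.87 ± 0.09, rank 11) than on Agilent. Among the detected, miR-216b, miR-30e*, miR-738, let-7f and miR-129* lay in the lower 25% on Exiqon.

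**Figure D5:**
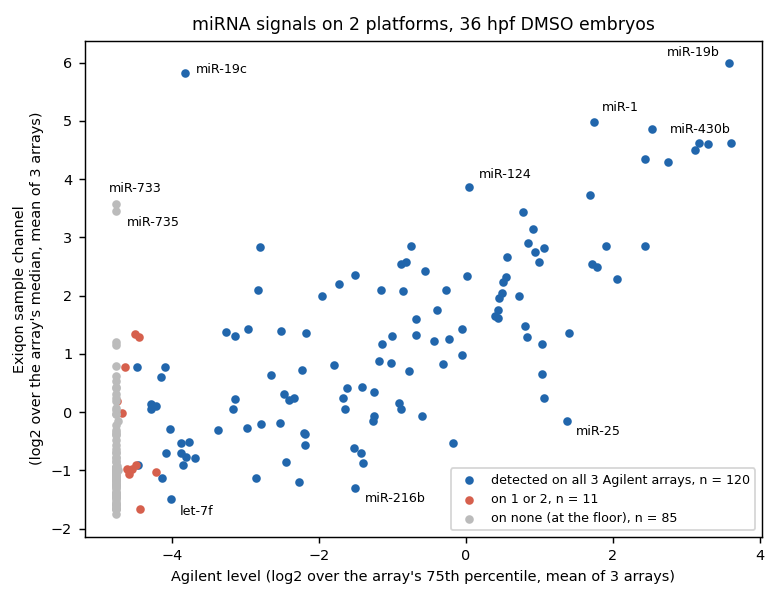
Exiqon sample-channel level (y axis, log2 of signal over the array's median) against the Agilent level (x axis, log2 of signal over the array's 75th percentile) for 216 shared miRNAs, each a mean of 3 arrays. Of the 20 brightest Agilent names 12 are in the Exiqon top 20, miR-19c, miR-733 and miR-735 stand high on Exiqon alone, and miR-25 is bright on Agilent but lies below the Exiqon median.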

How the data were processed

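The members and lists were chosen with earlier results of these data known. The intensity values deposited by the authors for the Agilent arrays are background-subtracted, spatially detrended processed signals of 1 colour (Cy3), per the file headers, made with Agilent Feature Extraction 9.5 per the submitters' processing notes (9.5.3.1 in the file headers) and not scaled between arrays. Spot flags of other kinds (well above background, saturated, outlier) were set by the same program, per the file headers. The deposited value table equalled the processed signal in all 5335 spots per array. Outlier spots (3.29% to 6.39% per array) were left out, spots were floored and scaled to the array's 75th percentile over 223 probes detected on all 3 arrays, and log2 values of the 5 to 10 spots of a probe were averaged. Exiqon intensities are spot and local background means per channel, per the file headers; normexp (offset 50, limma 3.58.1 in R 4.3.3) was applied to the Hy3 channel, identified by its landmark spots, and flagged spots (5.32% to 9.64%) were left out. Calculations used Python 3.11.15, pandas 2.3.3, numpy 2.4.6 and scipy 1.17.1, and the ranking was tested on simulated data. No hypothesis test was made, and the number of arrays, 3, limits the precision. Named miRNAs were the 20 brightest, the 6 in the middle, the 5 dimmest detected, those on 1 or 2 arrays, saturated ones, the brightest and dimmest of each list, and the strand pairs with the largest difference or a brighter starred strand; other members are named where their family or platform comparison turns on them, after their values were seen.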

Additional observations from a re-analysis of the deposited data

Results flagged for a closer look

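A signal appeared outside the zebrafish names. Of the 14 names of other fish on the array, fru-miR-184 (Fugu) was above background on all 3 arrays, with 898, 1471 and 1610 units and a mean of 1326, and the other 13 were detected on no array. Its probe has 0 mismatches to that of zebrafish miR-184, which gave 980, 1471 and 1546 units. The probes of fru-miR-10d, fru-miR-142b and fru-miR-7 also had 0 mismatches to a zebrafish probe and were detected on no array. The zebrafish match of fru-miR-142b, miR-142a-5p, was itself detected on no array. The matches of the others were detected on all 3 arrays, miR-7a at rank 99 and miR-10d with 1098, 1616 and 1725 units. What sets fru-miR-184 apart was not tested.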

How the results depend on the processing

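The 20 brightest were the same 20 names with normexp background, each scaling, quantile normalization and outlier spots kept, by construction where only the scale changed. With the mean of all probes 17 of them were kept (miR-9, miR-429 and miR-363 in place of miR-18c, miR-200a and miR-204), and with the median spot 19. Added after seeing the data, the shortest probe kept 17 and detected 92. Leaving out names near-identical to a brighter one, also added then, kept 17 by construction, since miR-430j, miR-19a and miR-17a are such names. Of 31 named ranks, 0 to 5 moved beyond the spread of the arrays under background, scaling, outlier and averaging choices, 21 with the mean of probes and 26 with the shortest probe. In leave-one-out settings 19 to 20 were kept, 121 to 129 miRNAs were detected on all arrays, and rho with Exiqon was 0.684 to 0.700. Detection gave 112 names when all spots had to be above background and 127 when any did. With all shared names in place of the detected, rho was 0.741; it then includes names at the floor. No paired analysis was possible because only 1 group was described. Saturation limits the upper end and the floor the lower end of the order.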
